A study of Mus musculus with 6 samples.

Results

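Caveolae are flask-shaped pits of the plasma membrane, and the genes of their protein coat were followed through 3 RNA sequencing libraries labelled Shox2-/- and 3 labelled WT. The set was chosen by name: the caveolins Cav1, Cav2 and Cav3, the cavins Cavin1 to Cavin4, which the tables list under their older symbols Ptrf, Sdpr, Prkcdbp and Murc, and the accessory proteins Ehd2 and Pacsin2. All 9 were listed in every table, among 30631 genes in all. The cells had been grown from mouse embryonic stem cell clones on feeder fibroblasts, differentiated in hanging drops, sorted for the surface protein CD166 and used at stage 7+1 days as sinoatrial node-like cardiomyocytes, cells that resemble the heart's natural pacemaker. For the homeobox gene Shox2, the labels give the genotype Shox2-/- for 3 libraries and Wildtype for those labelled WT. The Shox2 transcript values given further on were higher in the libraries labelled Shox2-/-. The allele is not described, so these values do not show whether a label is wrong. Both groups were sorted for the same protein. The 3 titles labelled Shox2-/- share 1 clone-like prefix and the WT titles have different ones, so that genotype and clone cannot be told apart. The titles of libraries 1 and 2 labelled WT and of library 3 labelled Shox2-/- carry Diff9, and the other titles carry different numbers. Whether libraries with the same number share a culture is not stated. Separate cultures within a group are not stated either, so a p-value here measures the spread between these libraries, which may be technical. If libraries 1 and 2 labelled WT come from 1 culture, n = 3 counts it more than once.

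Caveolins are hairpin proteins that insert into the inner leaflet of the membrane and oligomerize, and cavins are soluble coiled-coil proteins that assemble on them to shape the pit. Cav1 and Cavin1 are required for caveolae in non-muscle cells, whereas Cav3 and Cavin4 are the muscle forms. EHD2, an ATPase, sits at the neck and holds the pit at the surface, and PACSIN2 is an F-BAR protein that bends membrane there. In the heart, caveolae gather ion channels and receptors of cyclic AMP signalling, and in pacemaker cells the channel HCN4 is among the proteins known to localize to them.

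Cav1 and Cav2 lie side by side on mouse chromosome 6, 17220 bases apart on the plus strand (GRCm38, called mm10 by the submitters). The 250 bases before the annotated start of 4 members are printed because these genes behaved differently in the libraries: Cav1 and its neighbour Cav2, the muscle cavin Cavin4, and Pacsin2, whose values lay on the other side of WT from those of Cav1. They are RefSeq promoters of build GRCm38.p6, 5′ to 3′ on the gene's strand, with 3 motifs in capitals wherever they occur on either strand: the homeodomain core TAAT, the GC box GGGCGG and the TATA box TATAAA.
Cav1, chr6:17306085-17306334, plus strand: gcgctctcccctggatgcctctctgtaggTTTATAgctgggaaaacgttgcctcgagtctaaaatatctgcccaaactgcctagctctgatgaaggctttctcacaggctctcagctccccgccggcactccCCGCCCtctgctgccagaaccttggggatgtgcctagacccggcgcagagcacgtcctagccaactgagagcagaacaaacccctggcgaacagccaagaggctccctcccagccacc
Cav2, chr6:17280935-17281184, plus strand: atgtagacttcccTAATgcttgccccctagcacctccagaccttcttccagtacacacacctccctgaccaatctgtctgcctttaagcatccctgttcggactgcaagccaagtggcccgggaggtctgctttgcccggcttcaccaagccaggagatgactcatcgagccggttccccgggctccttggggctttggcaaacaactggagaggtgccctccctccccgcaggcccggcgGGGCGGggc
Cavin4, chr4:48663264-48663513, plus strand: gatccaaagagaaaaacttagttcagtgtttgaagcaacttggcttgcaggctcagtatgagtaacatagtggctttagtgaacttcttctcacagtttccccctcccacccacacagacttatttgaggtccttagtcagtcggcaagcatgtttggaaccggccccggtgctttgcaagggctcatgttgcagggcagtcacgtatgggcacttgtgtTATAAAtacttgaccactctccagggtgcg
Pacsin2, chr15:83464607-83464856, minus strand: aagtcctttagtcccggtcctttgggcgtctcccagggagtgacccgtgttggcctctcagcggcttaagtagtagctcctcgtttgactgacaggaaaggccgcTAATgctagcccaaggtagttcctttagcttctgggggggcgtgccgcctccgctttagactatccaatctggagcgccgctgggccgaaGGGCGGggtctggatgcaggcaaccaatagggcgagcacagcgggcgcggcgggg

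The homeodomain core was not among these letters in the Cav1 and Cavin4 windows and occurred once each in those of Cav2 and Pacsin2, against 54.9% of all 32851 RefSeq promoter windows of the same length. A GC box was in the Cav1, Cav2 and Pacsin2 windows, against 32.7% of all windows. A TATA box began 30 bases before the start of Cavin4 on the gene's strand, and another was 221 bases before that of Cav1 on the opposite strand, against 12.4% of all windows. The Cav1 window was 59.6% G and C and that of Cavin4 was 48.8%, with a median of 52.4% over all windows. A second RefSeq start of Cav1, not printed, had 2 homeodomain cores in its window. Starts 2 and 3 of Pacsin2, not printed either, had none of the 3 motifs. The window of Ehd2, of which 32 bases lay inside the annotated gene, had 1 homeodomain core and 1 GC box. Those of Cav3, Cavin1 and Cavin2 had no homeodomain core. These matches describe letters only.

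Gene-assigned reads numbered 13504683 to 34650563 in a library. The deposited values are such counts after division by a size factor of the library, and are called normalized counts here. Library 1 of each group was the shallowest. Libraries 1 and 2 labelled WT were the closest pair, with 13.1% of tested genes differing by more than counting error where 5% would be expected, against 42.5% to 64.6% in the other pairs. Library 3 labelled WT stood apart from every other library, with a root mean square log2 difference of 0.69 to 0.96 over tested genes, and library 1 labelled Shox2-/- differed from the others by 0.59 to 0.96. The targeted gene was higher, not lower, in the libraries labelled Shox2-/-: Shox2 had 200.7, 548 and 373 normalized counts in libraries 1, 2 and 3 labelled Shox2-/-, against 89.6, 83.4 and 31.4 in those labelled WT. The labels do not describe the Shox2 allele, so directions below are directions between labels. Alcam, the gene of the sorted protein CD166, averaged 4598 ± 622 normalized counts in libraries labelled Shox2-/- and 6319 ± 415 in those labelled WT (SD, n = 3 each).

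Sinoatrial and cardiomyocyte markers were detected in every library, though unevenly and some at low levels. Vsnl1, a sinoatrial marker, had 4.44 to 10.4 normalized counts in libraries labelled Shox2-/- and 5.5 to 52.1 in those labelled WT. Nppa, a cardiomyocyte marker, had 5.19 to 13.3 and 14.1 to 25.4. Both are named for their low levels, and other markers went the other way. Of the 9 sinoatrial markers 4 were lower and 5 higher in the libraries labelled Shox2-/-, where 48.2% of all genes were lower. Without overlap, Isl1 (mean 960 against 485 in WT) and Gjc1 (3226 against 2076) were higher. Tbx18 (72.5 against 162) and Smoc2 (1140 against 3109) were lower without overlap. The pacemaker channel gene Hcn4 had 306, 241 and 276 normalized counts in libraries 1, 2 and 3 labelled Shox2-/-, against 297, 293 and 79.3 in those labelled WT. Summed over 9 cardiomyocyte markers, library 1 labelled Shox2-/- held 7763 and library 3 labelled WT held 6942 normalized counts, the lowest of their groups, while the other 4 libraries held 17010 to 26403.3. Ttn was the largest part of this sum in every library, at 2982 to 17592.

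Cav1 (chr6:17306335-17341452) was the coat gene with the lowest level in the libraries labelled Shox2-/- relative to those labelled WT. It had 70.9, 212 and 178 normalized counts in libraries 1, 2 and 3 labelled Shox2-/-, against 449.8, 407 and 977 in those labelled WT. Every library labelled Shox2-/- was below every library labelled WT, with library 1 labelled Shox2-/- the lowest and library 3 labelled WT the highest. The mean was 154 ± 73.5 in libraries labelled Shox2-/- and 612 ± 318 in those labelled WT (SD, n = 3 each), so that the first was 25.1% of the second. On the log2(normalized count + 1) scale used for all tests, the change was -2.01 (SE 0.48, 95% interval -3.14 to -0.89), with an unadjusted p of 0.00373 and an adjusted p of 0.226 in limma, which misses the threshold of 0.05 over all genes.

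Cav2 (chr6:17281185-17289115), whose protein forms mixed oligomers with caveolin-1, was low in all libraries. It had 29.4, 54.5 and 25.2 normalized counts in libraries 1, 2 and 3 labelled Shox2-/-, against 46.5, 46.3 and 93.4 in those labelled WT. The groups overlapped, since library 2 labelled Shox2-/- was above libraries 1 and 2 labelled WT. The log2 change was -0.75 (SE 0.41, 95% interval -1.71 to 0.21; adjusted p = 0.435 in limma), with as few as 17 reads behind a value. Without library 2 labelled Shox2-/- it was -1.08, and with a block joining the titles that carry Diff9 it was -1.03 (adjusted p = 0.288 in limma), both past an unadjusted p of 0.05.

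Cav3 (chr6:112459505-112472872), the caveolin of differentiated muscle, was at the limit of detection. It was listed at 0 in libraries 1 and 2 labelled Shox2-/- and had 1 read in library 3, against 2 reads in library 2 labelled WT and 0 in libraries 1 and 3. A count of 0 allows up to 3 reads, or 5.19 normalized counts in library 1 labelled Shox2-/- and 2.36 in library 3 labelled WT, as far as counting error goes. Cav3 was below the filter on low values, a normalized count of at least 10 in at least 3 libraries, and was not tested. The other 8 members reached 10 in all 6 libraries, so that none entered the test through 1 group alone.

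**Figure D1:**
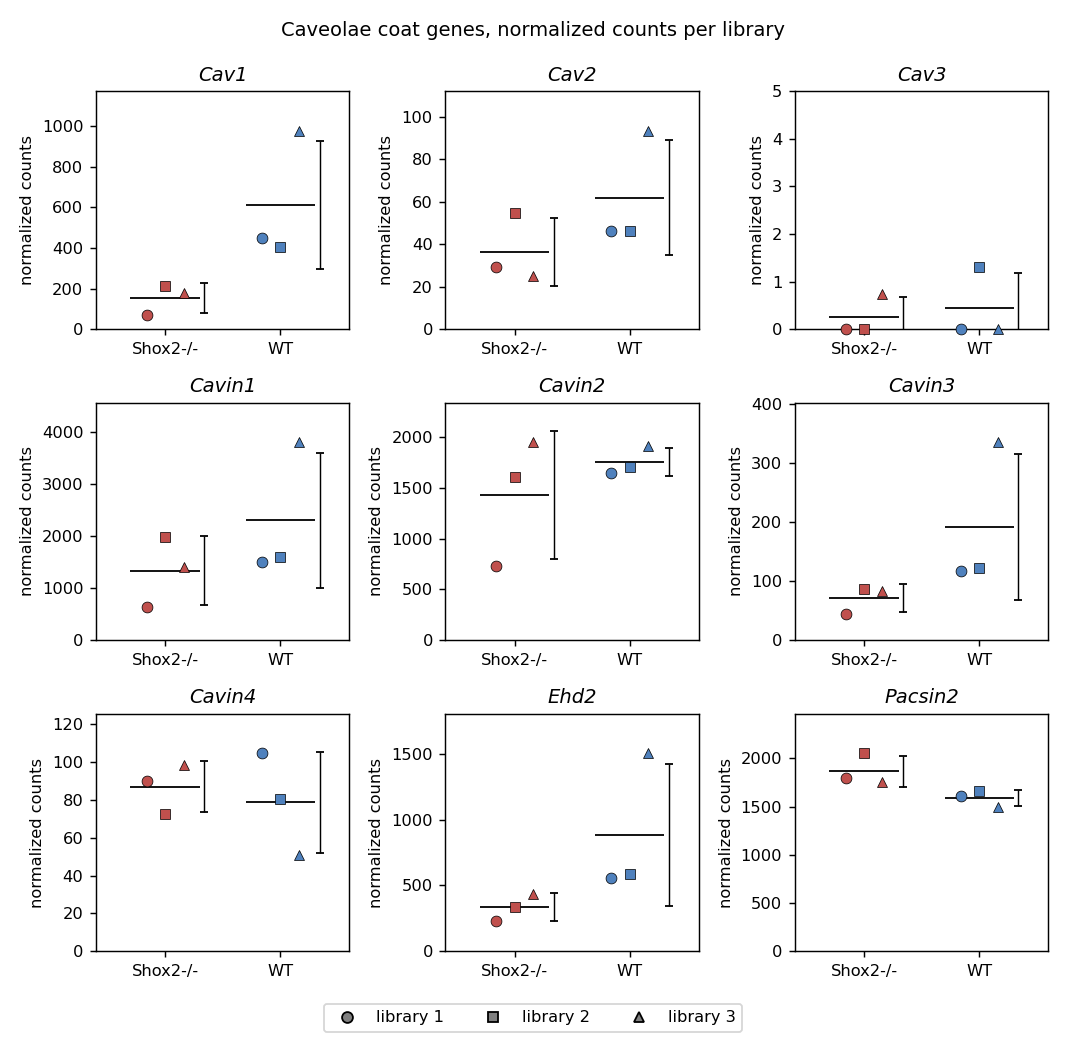
Normalized counts of the 9 caveolae coat genes in each library (vertical axis from 0, one panel per gene). Symbols mark library 1, 2 and 3 of the libraries labelled Shox2-/- (left, red) and labelled WT (right, blue), the line is the mean and the bar its SD (n = 3). Cav1, Cavin3 and Ehd2 lay lower in all libraries labelled Shox2-/- than in any labelled WT, Pacsin2 lay higher, and Cav3 reached at most 1.30.

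Among the cavins, Cavin3 separated the labels and the other 3 did not. Cavin3 (chr7:105480083-105482300, minus strand), an adaptor that binds protein kinase C delta, had 45.0, 87.6 and 83.7 normalized counts in libraries 1, 2 and 3 labelled Shox2-/-, against 117.8, 122.5 and 336 in those labelled WT. All 3 values labelled Shox2-/- were below the lowest WT value, and library 3 labelled WT was 2.80 times the mean of the other WT libraries. The log2 change was -1.28 (SE 0.46, 95% interval -2.36 to -0.20), with an unadjusted p of 0.0261 and an adjusted p of 0.303 in limma. An exon overlap of 374 bases with Gm45667, on the plus strand and not among the listed genes, leaves the Cavin3 values uncertain. The strand setting is not given.

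Cavin1 (chr11:100956733-100970887, minus strand), the cavin that caveola formation depends on, had 637, 1977 and 1406 normalized counts in libraries 1, 2 and 3 labelled Shox2-/-, against 1494, 1607 and 3808 in those labelled WT. The groups overlapped: library 2 labelled Shox2-/- exceeded libraries 1 and 2 labelled WT. The log2 change was -0.79 (SE 0.49, 95% interval -1.93 to 0.35; adjusted p = 0.485 in limma). Without library 3 labelled WT and library 1 labelled Shox2-/- together it was 0.11, so its sign rested on those libraries.

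Cavin2 (chr1:51289126-51302960), a phosphatidylserine-binding cavin that can induce membrane tubules, had 727, 1603 and 1948 normalized counts in libraries 1, 2 and 3 labelled Shox2-/-, against 1648, 1705 and 1912 in those labelled WT. Its low mean in the libraries labelled Shox2-/-, 1426 ± 629.6 against 1755 ± 139 in those labelled WT (SD, n = 3 each), came from library 1 labelled Shox2-/-, and without that library the log2 change of -0.41 (SE 0.34; adjusted p = 0.592 in limma) became 0.013. Cavin4 (chr4:48663514-48673502), the muscle cavin, had 89.97, 72.4 and 98.5 normalized counts in libraries 1, 2 and 3 labelled Shox2-/-, against 104.6, 80.2 and 51.0 in those labelled WT. These ranges overlapped, and the log2 change was 0.19 (SE 0.30, 95% interval -0.52 to 0.90; adjusted p = 0.802 in limma), which without library 3 labelled WT was -0.085.

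Of the accessory proteins, Ehd2 was lower and Pacsin2 slightly higher in the libraries labelled Shox2-/-, and neither passed over all genes. Ehd2 (chr7:15946958-15967567, minus strand) had 230.1, 339 and 438 normalized counts in libraries 1, 2 and 3 labelled Shox2-/-, against 559, 585 and 1503 in those labelled WT. The groups did not overlap, and the log2 change was -1.28 (SE 0.41, 95% interval -2.24 to -0.32), with an unadjusted p of 0.0160 and an adjusted p of 0.287 in limma. Pacsin2 (chr15:83375607-83464606, minus strand) had 1796, 2051 and 1749.5 normalized counts in libraries 1, 2 and 3 labelled Shox2-/-, against 1608, 1665 and 1492 in those labelled WT. The groups did not overlap, and the log2 change of 0.23 (SE 0.11, 95% interval -0.020 to 0.48; adjusted p = 0.378 in limma) was the smallest in standard error among the members.

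Over the 17034 genes tested, 0 passed the adjusted threshold in limma, a background of 0.0%, and 0 of the 8 tested members passed. An unadjusted p under 0.05 was reached by 3 of the 8 members, beside 14.2% of all genes: 3 were lower in the libraries labelled Shox2-/- (Cav1, Ehd2 and Cavin3) and 0 were higher, where 7.23% of all genes were lower and 6.92% higher at that threshold. The groups did not overlap for 4 members, beside 23.6% of all genes: Cav1, Ehd2 and Cavin3 were lower, beside 10.8%, and Pacsin2 was higher, beside 12.8%. The median log2 change of the 8 members was -0.77, against 0.013 over all genes tested, and 6 of the 8 were below 0, against 48.2% of all genes. Cav1 stayed past that unadjusted threshold without each library in turn, at log2 changes of -2.32 to -1.53. Ehd2 and Cavin3 missed it without library 1 labelled Shox2-/- (limma, log2 changes of -1.03 and -0.98), and Cavin3 also without library 3 labelled WT (-0.79). Without both of these libraries, an exclusion chosen after the data were seen, 3 members were past that threshold, beside 15.4% of all genes. Their log2 changes were -1.137 for Cav1, -0.57 for Ehd2 and -0.48 for Cavin3.

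**Figure D2:**
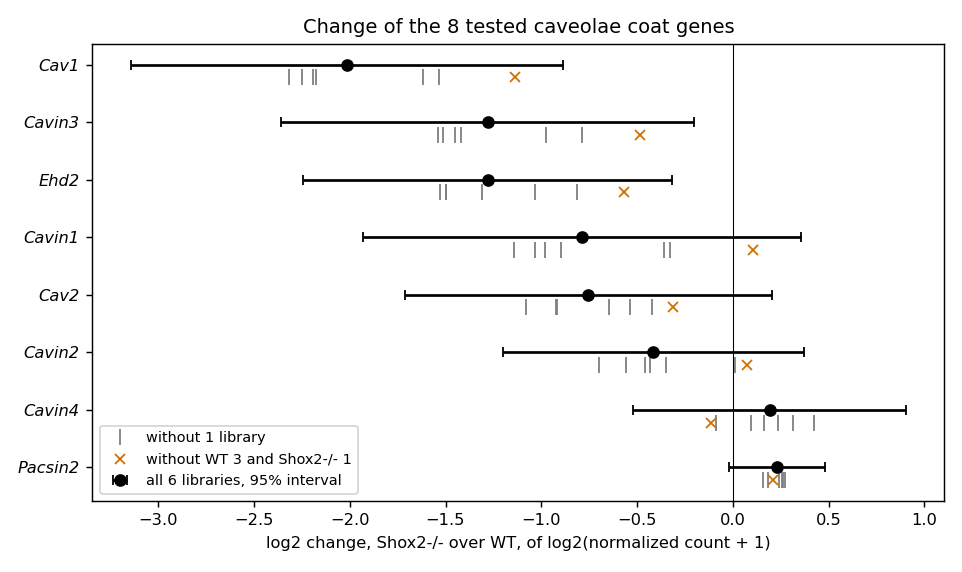
Log2 change of the 8 tested caveolae coat genes, libraries labelled Shox2-/- over WT (horizontal axis), with the 95% interval from all 6 libraries (black), the change without each library in turn (grey ticks) and without library 3 labelled WT and library 1 labelled Shox2-/- together (orange crosses). Cav1, Cavin3, Ehd2 and Cav2 stayed below 0 and Pacsin2 above 0 throughout, while Cavin1, Cavin2 and Cavin4 crossed 0.

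Several members also varied together inside each label, and others did not. Library 3 labelled WT was 2.01 to 2.80 times the mean of the other WT libraries for Cav1, Cav2, Cavin1, Cavin3 and Ehd2, but 1.1402 times for Cavin2, 0.91 times for Pacsin2 and 0.55 times for Cavin4. Library 1 labelled Shox2-/- was at 0.36 to 0.74 times the mean of the other libraries of its label for Cav1, Cav2, all cavins but Cavin4, and Ehd2, and at 0.94 and 1.05 times for Pacsin2 and Cavin4. Cav2 was lower still in library 3 labelled Shox2-/-, at 25.2 normalized counts against 29.4 in library 1. Libraries 1 and 2 labelled WT differed by factors of 0.93 to 1.30 over the 8 genes. The closest profiles among the members were those of Cavin3 and Ehd2, with a root mean square distance of 0.14 log2 units over the 6 libraries after each gene was centred on its mean, and the farthest those of Cav1 and Cavin4 (1.40).

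**Figure D3:**
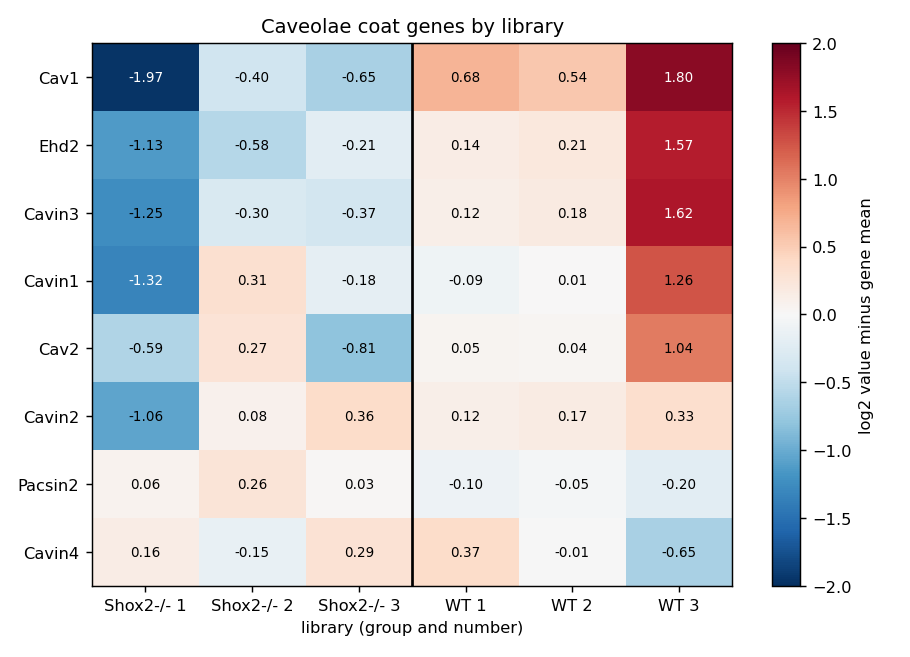
Log2(normalized count + 1) of the 8 tested members minus the gene's mean over all libraries (colour and printed value), with libraries labelled Shox2-/- left of the line and those labelled WT right of it. Cav1 ran from -1.97 in library 1 labelled Shox2-/- to 1.7996 in library 3 labelled WT, and Cavin3 and Ehd2 were also lowest and highest in these libraries.

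Set against the other tested coat genes within the same library, Cav1 was lower in every library labelled Shox2-/- than in any labelled WT. Cav1 had the lowest log2 change of the tested members, so the direction of these differences was fixed beforehand. Levels were compared between genes per kilobase of annotated exon (GENCODE M21). The Cavin1 level per kilobase was 8.62, 8.96 and 7.59 times that of Cav1 in libraries 1, 2 and 3 labelled Shox2-/-, against 3.19, 3.79 and 3.74 times in those labelled WT. Although Cavin1 itself spanned a wide range in both labels, this ratio was narrow in each, at 8.39 ± 0.71 in libraries labelled Shox2-/- and 3.57 ± 0.33 in those labelled WT (SD, n = 3 each). As a log2 ratio of normalized counts, Cav1 over Cavin1 was -3.11 ± 0.12 in libraries labelled Shox2-/- and -1.89 ± 0.14 in those labelled WT (SD, n = 3 each), a difference of -1.22.

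The log2 ratio of Cav1 to each of the 7 other tested members was lower in all libraries labelled Shox2-/- than in any labelled WT, by -0.73 against both Ehd2 and Cavin3, -1.26 against Cav2, -1.60 against Cavin2, -2.21 against Cavin4 and -2.24 against Pacsin2. Each two-sided exact permutation test over libraries gave p = 0.1, which is the smallest that 3 against 3 libraries allow, and the adjusted p over the 7 ratios was 0.1. Each difference is the log2 change of Cav1 minus that of the other gene, both given above. The ratios also share Cav1, so they are not 7 separate results and no further evidence that Cav1 changed. The ratio to Cavin1 moved least between exclusions, with differences of -1.29 to -1.14 over all alternatives run.

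The caveolins were a small part of the coat transcripts. Cav1 made up 70.02%, 79.0% and 86.3% of the summed caveolin level per kilobase in libraries 1, 2 and 3 labelled Shox2-/-, against 90.4%, 88.7% and 91.0% in those labelled WT, and Cav2 made up nearly all of the rest. The cavin sum per kilobase was 16.5, 14.9 and 18.9 times the caveolin sum in libraries 1, 2 and 3 labelled Shox2-/-, against 7.46, 8.39 and 6.14 times in those labelled WT. Cavin1 was 39.5 ± 6.83% of the cavin sum in libraries labelled Shox2-/- and 44.7 ± 9.33% in those labelled WT (SD, n = 3 each), ranges that overlapped (exact permutation p = 0.5).

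**Figure D4:**
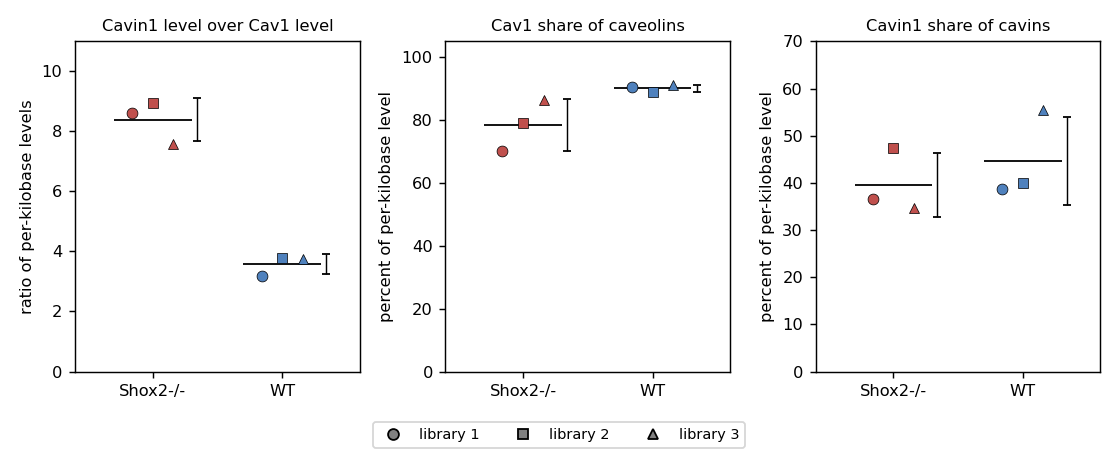
Coat composition per library from levels per kilobase of exon: the Cavin1 level over the Cav1 level (left), the Cav1 share of the 3 caveolins (middle) and the Cavin1 share of the 4 cavins (right), all axes from 0, with mean line and SD bar (n = 3) for libraries labelled Shox2-/- (red) and WT (blue). The ratio was 7.59 to 8.96 in libraries labelled Shox2-/- and 3.19 to 3.79 in those labelled WT, and the Cavin1 share overlapped.

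By mean level per kilobase in the libraries labelled Shox2-/-, the order was Cavin2 (467), Pacsin2 (380.1), Cavin1 (374), Ehd2 (65.5), Cav1 (44.6), Cavin3 (43.4), Cavin4 (42.3), Cav2 (10.9) and Cav3 (0.21). There the ranges of Cavin2, Pacsin2 and Cavin1 overlapped from one to the next, as did those of Ehd2, Cav1, Cavin3 and Cavin4. In the libraries labelled WT the order was Cavin1 (642), Cavin2 (574), Pacsin2 (324), Cav1 (178), Ehd2 (172), Cavin3 (116), Cavin4 (38.3), Cav2 (18.6) and Cav3 (0.37). The ranges of Cavin1 and Cavin2 overlapped there, as did those of Cav1 and Ehd2, of Ehd2 and Cavin3, and of Cavin4 and Cav2, whereas Pacsin2 stood apart from its neighbours. Cav1 therefore ranked above the muscle cavin Cavin4 without overlap in the libraries labelled WT, and beside it in those labelled Shox2-/-.

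Proteins that act with caveolae were followed in a list of 32 genes, of which 31 were in the tables and all 31 were tested. In limma 0 passed over all genes. At an unadjusted p under 0.05, 3 were lower (Kcnj8, Prkca and Ehd3) and 2 higher (Bves and Popdc2) in the libraries labelled Shox2-/-, beside 7.23% and 6.92% of all genes, and 3 were below and 3 above WT without overlap, beside 10.8% and 12.8%. The list's median log2 change was -0.047, against 0.013 over all genes tested. These counts lay near the background, so the members below are given as values. Kcnj8, the pore of a vascular-type ATP-sensitive potassium channel, had 5.19, 14.3 and 23.0 normalized counts in libraries 1, 2 and 3 labelled Shox2-/-, against 43.2, 46.3 and 58.1 in those labelled WT (log2 change -1.92, SE 0.50). The 5.19 is 3 reads, the limit of detection given above for that library. The groups did not overlap. Prkca, protein kinase C alpha, which binds cavin-2, averaged 324 ± 56.4 normalized counts in libraries labelled Shox2-/- and 469.7 ± 47.4 in those labelled WT (SD, n = 3 each; log2 change -0.54). Ehd3, a relative of Ehd2 on recycling endosomes, had a log2 change of -0.43 (SE 0.18) with overlapping groups. Cd36, a fatty acid transporter, had one of -2.07 (SE 0.98), also with overlap, and its 702 normalized counts in library 3 labelled WT stood far above the other libraries.

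Of the 3 Popeye domain genes in the list, Bves and Popdc2 separated the labels and Popdc3 did not. Bves, whose membrane protein binds cyclic AMP and caveolin-3, had 1343, 1031 and 992 normalized counts in libraries 1, 2 and 3 labelled Shox2-/-, against 750.2, 773 and 319.5 in those labelled WT (log2 change 0.96, SE 0.34; adjusted p = 0.3002 in limma). Popdc2, of the same family, averaged 1576 ± 275 in libraries labelled Shox2-/- and 1004 ± 347 in those labelled WT (SD, n = 3 each; log2 change 0.71). Both were higher in every library labelled Shox2-/- than in any labelled WT. Popdc3 averaged 171 ± 17.0 in libraries labelled Shox2-/- and 124 ± 56.6 in those labelled WT (SD, n = 3 each), with overlapping groups (log2 change 0.59, SE 0.38; adjusted p = 0.501 in limma). Yes1, a Src-family kinase, had a log2 change of 0.23 (SE 0.11) and groups that did not overlap, and Ror1, a receptor-like protein known to bind caveolin-1 and cavin-1, one of 0.45 (SE 0.22) and groups that did. Neither Src, the kinase known to phosphorylate caveolin-1 (0.11), nor the flotillins Flot1 (-0.16) and Flot2 (0.16), which scaffold another kind of membrane domain, had groups that separated.

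Around Cav1, the receptor tyrosine kinase gene Met, 122348 bases beyond its end and chosen after its values were seen, also lay lower in every library labelled Shox2-/-. It had 122.8, 164 and 79.99 normalized counts in libraries 1, 2 and 3 labelled Shox2-/-, against 204, 189.7 and 529 in those labelled WT (log2 change -1.22, SE 0.44; adjusted p = 0.303 in limma). Tes, a focal adhesion gene on the other side, had a log2 change of -0.38 (SE 0.33), and Capza2, an actin capping protein gene beyond Met, one of 0.15 (SE 0.14). Gm15581, an antisense gene that spans Cav1 and Cav2 on the minus strand, had at most 1.66 normalized counts.

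Among 13292 other tested genes with a mean of at least 50 normalized counts, the 5 whose profile over the 6 libraries lay nearest to that of Cav1 were Igfbp3, a carrier of insulin-like growth factors, Lrrc32, a docking protein of latent TGF-beta, Abcc9, the regulatory subunit of ATP-sensitive potassium channels, Fmo1, a flavin monooxygenase, and Epha3, an ephrin receptor. Their root mean square distances from Cav1 were 0.16, 0.25, 0.26, 0.26 and 0.27 log2 units. Igfbp3 had 337, 994 and 759 normalized counts in libraries 1, 2 and 3 labelled Shox2-/-, against 1733, 1559 and 5003 in those labelled WT. These genes were chosen for their likeness to Cav1, so their changes are no further evidence.

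Most listed markers of connective tissue cells, but not all, differed between the labels in the same direction as Cav1. Of 9 mesenchyme and feeder fibroblast markers, 8 were tested, 7 were lower in the libraries labelled Shox2-/-, beside 48.2% of all genes, and 5 of these had an unadjusted p under 0.05 in limma, beside 7.23%, with 0 past the adjusted threshold. Their summed level was 176402 to 278764 normalized counts in libraries labelled Shox2-/- and 373245 to 596094 in those labelled WT, lowest in library 1 labelled Shox2-/- and highest in library 3 labelled WT, as for Cav1. The collagen gene Col3a1 was the largest part of this sum, at 106540 to 177188 in libraries labelled Shox2-/- and 217111 to 333969 in those labelled WT. Pdgfra averaged 12619 in libraries labelled Shox2-/- and 12511 in those labelled WT, and was lowest in library 3 labelled WT (8389). The groups overlapped for Pdgfra, Postn and Thy1. Thy1, a fibroblast surface marker, had 6.92, 3.58 and 2.22 normalized counts in libraries 1, 2 and 3 labelled Shox2-/-, against 4.98, 5.21 and 50.25 in those labelled WT. Dpt, a matrix protein gene, was at or below 5.19 in libraries labelled Shox2-/-, near the limit of detection, and at 15.6 to 109 in those labelled WT. It is among the 5 and the 7 counted above. Dpt passed the filter on low values through the libraries labelled WT alone, so its direction followed from the filter and adds nothing to those counts. No marker of this list was at 0 in any library. The part of these cells in the Cav1 values was not tested, and in sorted bulk RNA fewer cells of a type cannot be told apart from less RNA per cell.

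The other marker lists are read against the same shares of all genes: 48.2% with a log2 change below 0, and 7.23% lower and 6.92% higher at an unadjusted p under 0.05. All 8 markers of epithelium and endoderm had log2 changes below 0, 5 of them at that threshold, and their sum was 4957 to 14750 normalized counts in libraries labelled Shox2-/- and 11403 to 14330 in those labelled WT. None was at 0. Krt18 was the largest part of this sum, at 2792 to 7715 in libraries labelled Shox2-/- and 3542 to 5567 in those labelled WT. The exception was library 3 labelled WT, where Afp held 7020. The endothelial sum, of a cell type rich in caveolae, was 8121 to 12455 in libraries labelled Shox2-/- and 3600 to 14346 in those labelled WT, with its lowest value in library 3 labelled WT, where Cav1 was highest. Most of this sum was Kdr, at 6886 to 9309 in libraries labelled Shox2-/- and 2518 to 11284 in those labelled WT. Of its 8 markers 5 were lower and 3 higher, and 1 of the lower ones was at that threshold. That marker, Emcn, had 22.5, 51.8 and 56.3 normalized counts in libraries 1, 2 and 3 labelled Shox2-/-, against 109.5, 87.3 and 80.1 in those labelled WT. The smooth muscle sum was 40523 to 51348 in libraries labelled Shox2-/- and 45163 to 51373 in those labelled WT. Most of it was Acta2, at 32856 to 42742 in libraries labelled Shox2-/- and 36376 to 38286 in those labelled WT. Of the 7 smooth muscle markers 4 were lower and 3 higher, and 3 of the lower ones were at that threshold (Myh11, Cnn1 and Des). The epicardial sum was 1422 to 2826 in libraries labelled Shox2-/- and 2701 to 4079 in those labelled WT, with 4 of 5 markers lower and 0 at that threshold, and like Cav1 it was lowest in library 1 labelled Shox2-/- and highest in library 3 labelled WT. The 9 sinoatrial markers summed to 6528 to 7121 in libraries labelled Shox2-/- and 5748 to 9583 in those labelled WT, with 2 lower and 2 higher at that threshold. The highest sum, in library 3 labelled WT, held 5712 normalized counts of Smoc2, whereas Hcn4 was lowest there, at 79.3. Of the 9 cardiomyocyte markers 6 were lower and 3 higher, 1 of the lower ones at that threshold. Of 5 skeletal muscle markers, Acta1, which heart cells also express, passed the filter on low values, with overlapping groups (log2 change -0.67, SE 0.37). The other 4 were low. Myod1 and Myf5 were listed at 0 in all libraries labelled Shox2-/-, and their highest value was 4.71, in library 3 labelled WT. Myog had 0, 1.79 and 2.96 normalized counts in libraries 1, 2 and 3 labelled Shox2-/-, against 4.98, 7.82 and 30.6 in those labelled WT. Of 3 adipocyte markers 0 passed the filter. Adipoq reached at most 1.79, Fabp4 reached 30.6 in library 3 labelled WT, and the adipocyte sum was 0 to 3.58 in libraries labelled Shox2-/- and 3.91 to 35.3 in those labelled WT. The part of these cell types in the coat gene values was not tested.

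**Figure D5:**
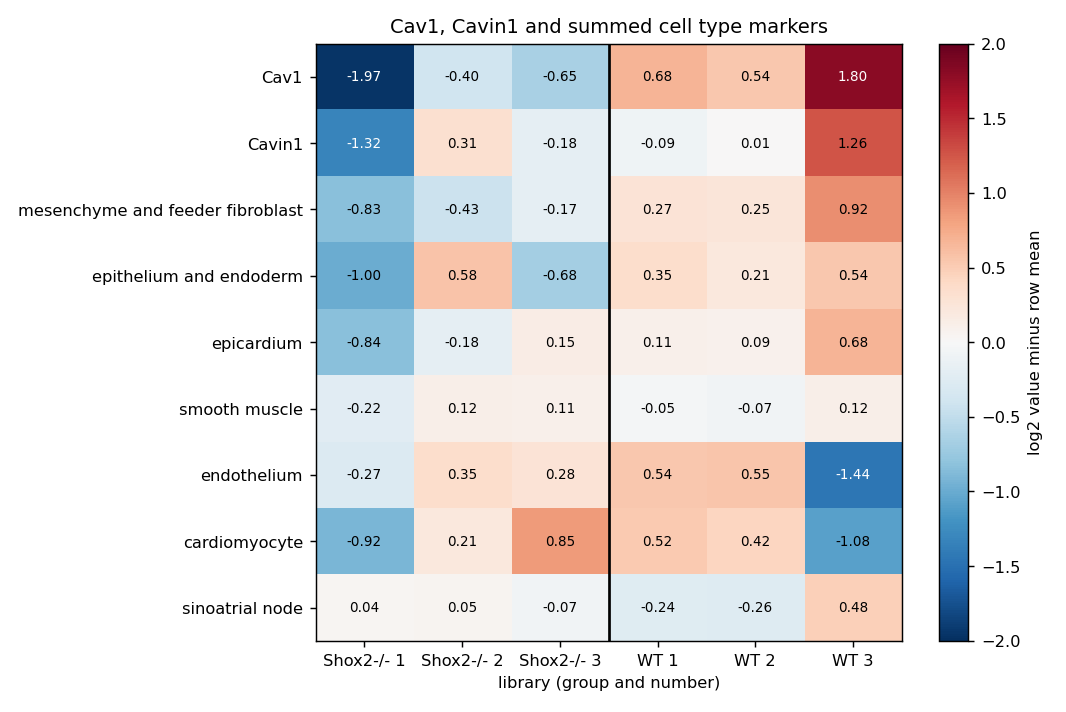
Log2 level of Cav1, Cavin1 and the summed markers of 7 cell types, each minus its mean over the 6 libraries (colour and printed value), with libraries labelled Shox2-/- left of the line and WT right of it. Library 3 labelled WT was high for Cav1 (1.7996) and the mesenchyme sum (0.92) and low for the endothelial (-1.44) and cardiomyocyte (-1.08) sums, and library 1 labelled Shox2-/- was low for Cav1 (-1.97), the mesenchyme sum (-0.83) and the cardiomyocyte sum (-0.92).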

How the data were processed

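Each deposited file holds 1 library, with a gene ID, a symbol and a value with a decimal comma for each of 30631 genes. Build mm10 and the tools BWA, HTSeq, CASAVA 1.8.2 and DESeq2 1.14.0 are named, with no roles, per the submitters' processing notes. From the values, the authors deposited normalized counts, each a read count over a size factor common to its library: once divided by the value of 1 read, 100% lay within 0.1 of a whole read. No source used here gives the kit or the strand setting, so overlapping genes are uncertain; an exon overlap of 374 bases touches Cavin3 (with Gm45667).

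The test covered 17034 genes, those reaching 10 in 3 or more libraries, as log2(value + 1) with limma 3.58.1 in R 4.3.3. It used 1 term for the label, a mean-variance trend, two-sided p-values, Benjamini-Hochberg over all tested genes and a threshold of 0.05. A check on simulated counts had the same spread beyond counting error for every gene and no outlying library. That check does not cover libraries as uneven as these. The count tests planned for raw counts, edgeR and DESeq2, were not used because the files hold normalized values; limma voom on recovered reads served as an alternative. Positions and exon lengths came from GENCODE M21, which held 30497 of the IDs, and promoters from RefSeq, where Cavin3 had no entry and the other 8 members matched.

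The members, lists and tests were chosen with earlier results of these data known. Named were all members, Shox2 and Alcam, up to 4 partner genes per direction with the lowest p, the 5 profiles nearest to Cav1 by distance, and cell type markers. Src, Flot1, Flot2, Popdc3, Met, Tes and Capza2 were added after their values were seen.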

Additional observations from a re-analysis of the deposited data

How the results depend on the processing

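No member passed the adjusted threshold in limma under any alternative run: the adjusted p of Cav1 was 0.067 to 0.514 over 18 alternatives, and its log2 change -2.32 to -1.14. Voom with sample quality weights gave the 0.067. Genes called over all genes, 0 with all libraries, were 303 with that method, 2 without the filter on low values, and 0 to 51 when 1 library was left out (51 without library 2 labelled Shox2-/-). Members with an unadjusted p under 0.05, 3 with all libraries, numbered 1 to 4 when 1 library was left out, beside 8.73% to 16.0% of all genes. The lowest number, 1, was without library 1 labelled Shox2-/-, beside 8.73%. Signs turned for Cavin1, at 0.11, Cavin2, at 0.076, and Cavin4, at -0.12, without library 3 labelled WT and library 1 labelled Shox2-/- together. They also turned for Cavin2 (-0.70 to 0.013) and Cavin4 (-0.085 to 0.43) when 1 library was left out. The causes were not tested. The stricter filter, at least 50 in at least 3 libraries, left Cav2 untested.

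The replicate numbers follow accession order and pair nothing. With libraries 1 and 2 labelled WT averaged as 1 sample, Cav1 had a log2 change of -2.21 (limma adjusted p = 0.505). In that fit 3 members had an unadjusted p under 0.05, beside 9.3% of all genes. With a replicate block that joined the Diff9 titles, the log2 change of Cav1 was -2.12 (limma adjusted p = 0.265) and 0 genes were called. With that block 4 members had an unadjusted p under 0.05, beside 14.8% of all genes. They were Cav2 (log2 change -1.03), Cav1, Ehd2 and Cavin3. The alternatives with edgeR and DESeq2 were not run. Depth limits Cav3 and Cav2, and a ratio test of 3 against 3 libraries cannot reach 0.05.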
